A study of Mus musculus with 8 samples.

Results

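RAW264.7 is a macrophage-like cell line grown from a mouse tumour. The state described here is that of RAW264.7 cells given interleukin-13 (IL-13) and all-trans retinoic acid (ATRA) together, set against untreated cells. Members were chosen by their labels alone: both arrays labelled with the 2 agents and both arrays of cells without an agent, 4 of the 8 arrays in all. Each of the 4 treatments (untreated, IL-13, ATRA, both) had 1 array at 12 h and 1 array at 24 h. The arrays with IL-13 alone and with ATRA alone served to estimate the spread and to place the levels of the cells given both agents. All cells grew in the same medium with serum, the agents were present for the whole time given, and the labels state no dose. The labels name the polarization of untreated and ATRA cells unpolarized, that of IL-13 cells M2 and that of cells given both agents suppressed M2. Whether the cultures were separate is not said in the labels, and a p-value here speaks only of the spread among these arrays. No treatment was repeated at one time. The spread was therefore the disagreement of each treatment's difference at 12 h with that at 24 h.

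IL-13 is a cytokine of type 2 immunity that signals through a receptor made of the IL-4 receptor alpha chain and Il13ra1, JAK kinases and the transcription factor STAT6. In macrophages it starts the programme called alternative or M2 activation, known for arginase, the mannose receptor and chemokines that draw eosinophils and monocytes. ATRA enters the nucleus and binds retinoic acid receptors, which pair with retinoid X receptors on response elements of target genes, among them their own receptor Rarb and transglutaminase Tgm2. The interferon-stimulated genes, by contrast, encode antiviral proteins that macrophages make in answer to interferon.

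Levels below are log2 scaled signals, with each array scaled to its 75th percentile. A pair of levels is given as 12 h and then 24 h. A difference is the log2 level with both agents minus that in untreated cells, averaged over the times, with limma's standard error after ±. "Rose", "fell" and "called" mean an adjusted p under 0.05 by limma with Benjamini-Hochberg adjustment over all 15440 genes tested.

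All 10 markers set for the macrophage line, among them Adgre1, Cd68, Csf1r and Lyz2, were well above background on both untreated arrays and on both arrays with the 2 agents. Lyz2, macrophage lysozyme, read 17.43 and 17.51 in untreated cells and 17.19 and 16.92 with both agents. Of the markers of other cells, 0 of 4 epithelial genes were well above background on any array, and Col1a1, Col3a1, Pdgfra, Dcn, Pecam1, Cdh5, Cd3g and Pax5 were at 0 of 8 arrays. Other such markers did pass that mark on at least 1 array. They were 3 of 5 T cell, 4 of 5 B cell and 2 of 6 fibroblast genes. Among the rest were 2 of 4 endothelial, 4 of 7 mast cell or neutrophil and 4 of 6 dendritic cell genes. Of the 13 other-cell markers that could be tested (2 T cell, 2 B cell, 1 fibroblast, 2 endothelial, 2 mast cell or neutrophil, 4 dendritic cell), 0 were called, beside 8.5% of all genes tested. With so few markers that count lies near the share over all genes. The 75th percentile of signal was 567 and 516 on the untreated arrays and 461 and 525 on the arrays with both agents. The share of probes well above background was 59.8% and 59.5% against 55.4% and 56.7%, so it was lower with both agents at each time. Whether that gap had a part in the counts below was not tested. By the file headers the 12 h arrays shared a scan date and the 24 h arrays shared another. An effect of scan date therefore cannot be told apart from one of time, and each difference was taken within a scan date.

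Cells given both agents differed from untreated cells in 1313 of 15440 genes tested (8.5%), of which 467 rose (3.02%) and 846 fell (5.48%). The median difference over all genes was −0.03. The balance of directions turned in some settings: it was 54 higher and 49 lower without the untreated array at 24 h, 89 and 81 without the 24 h array of both agents, and 26 and 10 when dim probes were kept in the test. At an unadjusted p under 0.05 limma gave 4362 genes. The median size of a called difference was 1.09 on the log2 scale. In counts without a test, 244 genes (1.58%) lay past 2-fold above at both times and 453 (2.93%) lay past 2-fold below, while 17 passed 2-fold in opposite directions. Of the 15440 tested genes, 54 were well above background on both arrays with the 2 agents and on neither untreated array, and 35 of these were called. The converse held for 518 of the 15440 genes, of which 130 were called. As given above, fewer probes were well above background on the arrays with both agents, and its part in these 2 counts was not tested. Genes of these 2 counts, and those given below as at least a fold, passed the filter through a bright group. Their calls are thus not independent of the filter. The count of 1313 depended on single arrays: it was 225 without the untreated array at 12 h, 103 without the untreated array at 24 h, 234 without the 12 h array and 170 without the 24 h array of both agents, and 692 without either ATRA array. It was 36 with dim probes kept and 2027 with eBayes set to trend and robust. In the text, "in every refit" marks a call that held when each of the 8 arrays was left out in turn, as 30 of the 170 called genes named here or in the lists did. A call without that mark was lost without at least 1 array, except that Plpp3 and Pcdhb11 were not refitted.

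**Figure D1:**
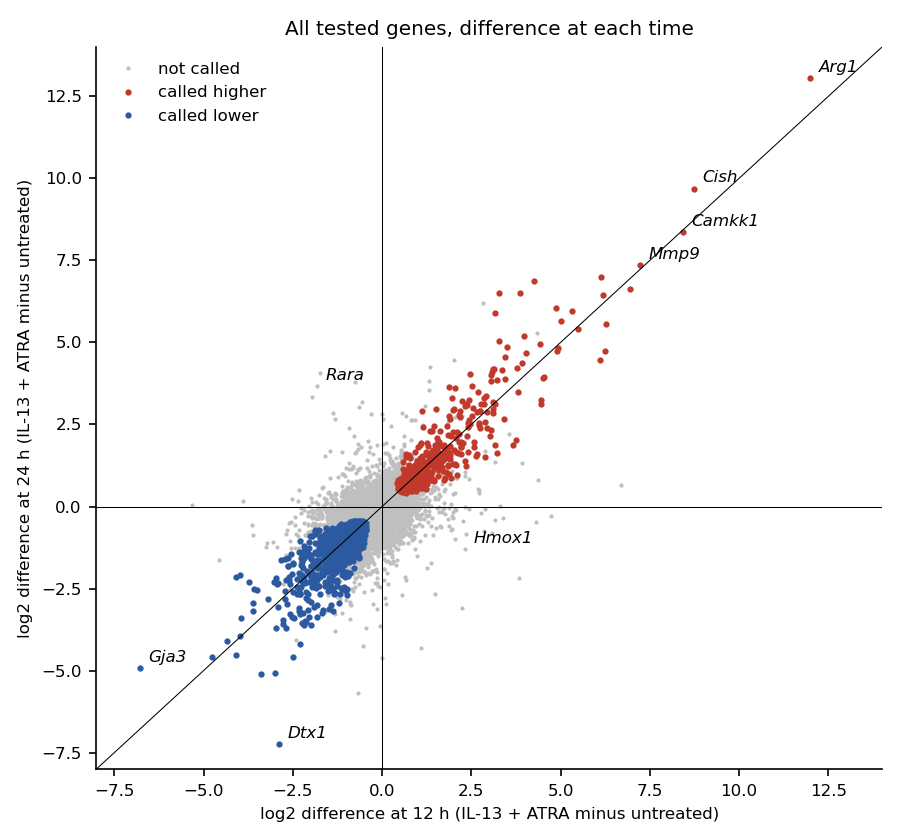
Log2 difference between cells given both agents and untreated cells at 12 h (horizontal) and at 24 h (vertical) for all 15440 tested genes, with called genes in red (467 higher) and blue (846 lower) and the diagonal of equal difference. All called genes lie where both times have the same sign, and Rara and Hmox1 lie where the times disagree.

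The gene with the largest fitted difference was Arg1, the arginase of alternatively activated macrophages, which turns arginine into ornithine and urea. Its level was 1.59 and 0.80 in untreated cells, not well above background, and 13.58 and 13.85 with both agents. Arg1 was thus at least 1641-fold higher (adjusted p = 0.00149, limma), in every refit. With IL-13 alone Arg1 read 7.5 and 9.0 and with ATRA alone 4.14 and 4.52, so the arrays with both agents lay above all 6 others. Its level with both agents was 5.47 ± 0.50 above IL-13 (adjusted p = 0.0168) and 9.39 ± 0.50 above ATRA (adjusted p = 0.00972), by the same limma fit. The probe lies on chromosome 10 at 24636194 to 24636253 of mm9, the build the deposited annotation gives.

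Ccl24, a chemokine for eosinophils, read 5.18 and 4.79 in untreated cells and 11.37 and 11.24 with both agents. The difference was 6.32 ± 0.42 (adjusted p = 0.00402, limma), in every refit. A second Ccl24 probe gave 6.39. Tgm2, a transglutaminase that cross-links proteins and a known target of retinoic acid, was already expressed in untreated cells at 9.50 and 8.45. With both agents it reached 14.35 and 14.51, a rise of 5.46 ± 0.39 (adjusted p = 0.00532, limma), in every refit, though not when dim probes were kept in the test. Its 2 other probes gave 4.35 and 4.46. These 3 genes had been given as markers of the state. Their probes lie at positions 136046485 to 136046544 of chromosome 5 for Ccl24 and 157942275 to 157942334 of chromosome 2 for Tgm2, in mm9.

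**Figure D2:**
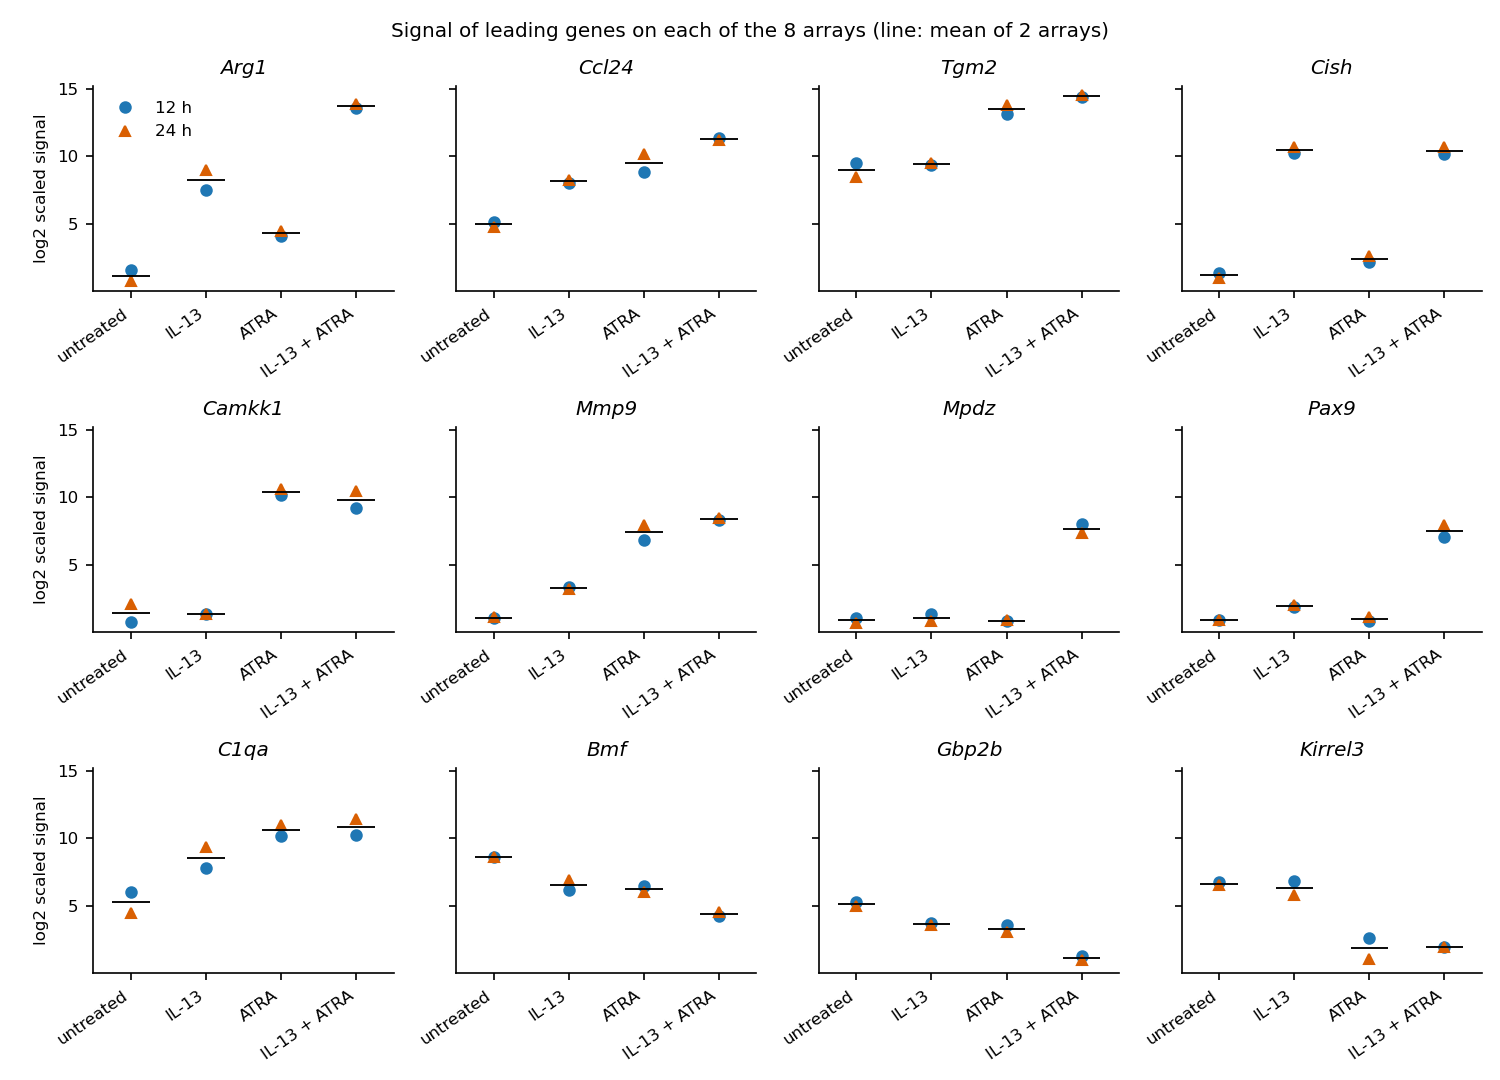
Log2 scaled signal of 12 leading genes on each of the 8 arrays, by treatment, with circles for 12 h, triangles for 24 h and a line at the mean of the 2 arrays. Arg1 is highest with both agents, Cish is high wherever IL-13 was present, Camkk1 wherever ATRA was present, and Mpdz and Pax9 are high on the arrays with both agents alone.

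Among the 15 genes with the largest fitted rise, Cish and Camkk1 read high under different single agents. Cish, a feedback inhibitor of cytokine receptors that STAT factors switch on, went from 1.42 and 1.01 to 10.15 and 10.703. It was at least 168-fold higher (adjusted p = 0.00106, limma), in every refit. With IL-13 alone Cish read 10.24 and 10.699, and with ATRA alone 2.16 and 2.61, not well above background. Camkk1, a kinase that activates calmodulin-dependent kinases, went the other way round. Its level rose from 0.76 and 2.12 to 9.18 and 10.48, at least 111-fold (adjusted p = 0.00181, limma), in every refit. Camkk1 read 1.41 and 1.36, not well above background, with IL-13 alone and 10.16 and 10.61 with ATRA alone. The gelatinase Mmp9, which degrades matrix, read 1.06 and 1.13 in untreated cells and 8.29 and 8.50 with both agents, at least 41-fold higher (adjusted p = 0.00181, limma), in every refit. A second Mmp9 probe was well above background on both arrays with the 2 agents and on neither untreated array.

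The remaining genes of these 15 covered metabolism, matrix, complement and secreted factors. Mlxipl, a transcription factor of sugar-driven lipid synthesis, differed by 5.92 ± 0.35 with both agents and by 5.63 with ATRA alone. For Col14a1, a collagen, the rise was at least 26.1-fold, while a second probe was not well above background on any of the 4 arrays compared. Fam20a, a secretory pathway pseudokinase, was at least 12.7-fold higher, and a second probe was well above background on both arrays with the 2 agents and on neither untreated array. Csn3, a milk casein gene, read 3.80 and 4.07 in untreated cells and 9.29 and 9.48 with both agents, while a second probe passed the background mark on 1 of 2 arrays with both agents and on neither untreated array. The rises of Mlxipl, Col14a1 and Fam20a held in every refit, and that of Csn3 was lost without any 1 of the 4 arrays compared (adjusted p 0.0552 to 0.0763, limma). C1qa, a subunit of the first complement component, rose by 5.57 ± 0.72 and lost its call without either array of both agents (adjusted p = 0.0727 and 0.102, limma). The monocyte chemokine Ccl7 rose by 5.49 ± 0.42 and lost its call without the untreated array at 24 h (adjusted p = 0.053, limma). Hbegf, a growth factor of the EGF family, rose by 5.29 ± 0.51 and lost its call without either untreated array (adjusted p = 0.067 and 0.0602, limma).

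Mpdz and Pax9 were well above background on both arrays with the 2 agents and on 0 of the 6 other arrays. Mpdz encodes a scaffold protein with many PDZ domains. Its level was 1.08 and 0.74 in untreated cells, 1.38 and 0.83 with IL-13, 0.83 and 0.96 with ATRA, and 8.01 and 7.38 with both. That is at least 25.2-fold above untreated cells (adjusted p = 0.00106), 23.6-fold above IL-13 (adjusted p = 0.00296) and 23.5-fold above ATRA (adjusted p = 0.00188), all by limma and in every refit for the first. The 2 remaining Mpdz probes never passed the background mark. Pax9, a transcription factor of pharyngeal pouch and tooth development, went from 0.92 and 0.97 to 7.05 and 7.97, at least 22.2-fold above untreated cells (adjusted p = 0.00135, limma), in every refit. It was at least 20.8-fold above IL-13 (adjusted p = 0.00308) and 20.7-fold above ATRA (adjusted p = 0.00216) by the same fit. Both genes passed the filter only through the arrays with the 2 agents. A high value there was thus in part set by the filter, and these calls lend it no separate support.

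Limma called 6 of the 15440 genes higher, and 7 lower, than in untreated, IL-13 and ATRA cells alike. Plpp3, a lipid phosphate phosphatase, and the protocadherin Pcdhb11 were chosen after their values were seen. Their p-values therefore lend no support to a pattern. Plpp3 read 2.12 and 1.90 in untreated cells and 5.92 and 5.37 with both agents, at least 6.12-fold higher (adjusted p = 0.00384, limma). It was at least 5.72-fold above IL-13 (adjusted p = 0.0134) and 5.2-fold above ATRA (adjusted p = 0.0229). Pcdhb11 was at least 5.82-fold above untreated cells (adjusted p = 0.00623, limma) and passed the background mark on 1 of the 2 arrays with IL-13 alone.

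Markers of alternative activation had the highest median difference of the gene lists, apart from the list of the 3 given markers. The labels call IL-13 cells M2 and these cells suppressed M2. The difference here is from untreated cells, so it does not bear on that label, and the comparison with IL-13 follows below. Of 32 listed genes 23 could be tested, and of these 13 rose and 1 fell, beside 3.02% and 5.48% over all genes, with a median of 1.79 against −0.03. Those 2 shares are the background for every list count against untreated cells, and a list with few calls may lie near them. A gene that is below background without the agents passes the filter only if a treatment raises it, so the tested members are not all members. Retnla and Ccl22 were well above background on 0 of 8 arrays, and Ccl17 on 1. The list and these genes were chosen with earlier results of the same data known. The 13 that rose include the 3 given markers of the state, and no count was made without them. The count that rose was 8 without the untreated array at 12 h, 7 without that at 24 h, and 8 and 10 without the 12 h and the 24 h array of both agents. Quantile normalization gave 12 higher and 0 lower.

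Besides Arg1, Ccl24 and Tgm2, the largest rise was that of Batf3, a transcription factor known from dendritic cells. Batf3 read 4.05 and 4.46 in untreated cells and 8.96 and 9.20 with both agents, a difference of 4.82 ± 0.15 (adjusted p = 0.00106, limma), in every refit. The transcription factor Irf4 rose from 3.14 and 3.12 to 5.69 and 6.13, by 2.79 ± 0.15, in every refit. For the mannose receptor Mrc1 the levels were 4.03 and 3.47 against 7.25 and 7.33, a rise of 3.55 ± 0.37 (adjusted p = 0.0106, limma). It stood −1.64 ± 0.37 from IL-13 alone (adjusted p = 0.1). Clec7a, the beta-glucan receptor dectin-1, rose by 2.58 ± 0.14 and Flt1, a VEGF receptor, by 2.08 ± 0.11, both in every refit.

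Other members that rose were the galactose lectin Mgl2 (2.76), the scavenger receptor Stab1 (2.83), the inhibitory receptor Cd200r1 (1.79), the transcription factor Egr2 (1.65) and the lipid receptor Cd36 (1.1, adjusted p = 0.0491, limma). Cd36 was not called under quantile normalization, with the authors' values, on the mean of its probes or with only the 4 arrays compared. Il10, the anti-inflammatory cytokine, was the list member that fell, by 1.09 on the log2 scale (adjusted p = 0.0466, limma). Leaving out any 1 of the 8 arrays ended that call (adjusted p 0.0611 to 0.191). Il10 had been 1.55 higher with IL-13 alone and was −1.54 with ATRA alone. Among members that did not pass limma's test, Il4i1, an amino acid oxidase, differed by 2.63 ± 0.74 (adjusted p = 0.0904) and the transcription factor Klf4 by −1.04 (adjusted p = 0.069). Chil3, a chitinase-like protein, read 1.64 and 2.94 in untreated cells, not well above background, and 2.84 and 3.83 with both agents, where 1 of 2 arrays passed that mark.

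Against IL-13 alone, limma called 4 of these 23 markers higher and 1 lower, beside 1.15% higher and 1.48% lower over all genes. Against ATRA alone it called 5 higher and 0 lower, beside 0.266% and 0.0972%. The 3 given markers are all among the 4 higher than with IL-13, and 1 of them is among the 5 higher than with ATRA. The median difference of the list was 1.68 with IL-13 alone and 0.20 with ATRA alone, each against the same untreated arrays that served the comparison with both agents.

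**Figure D3:**
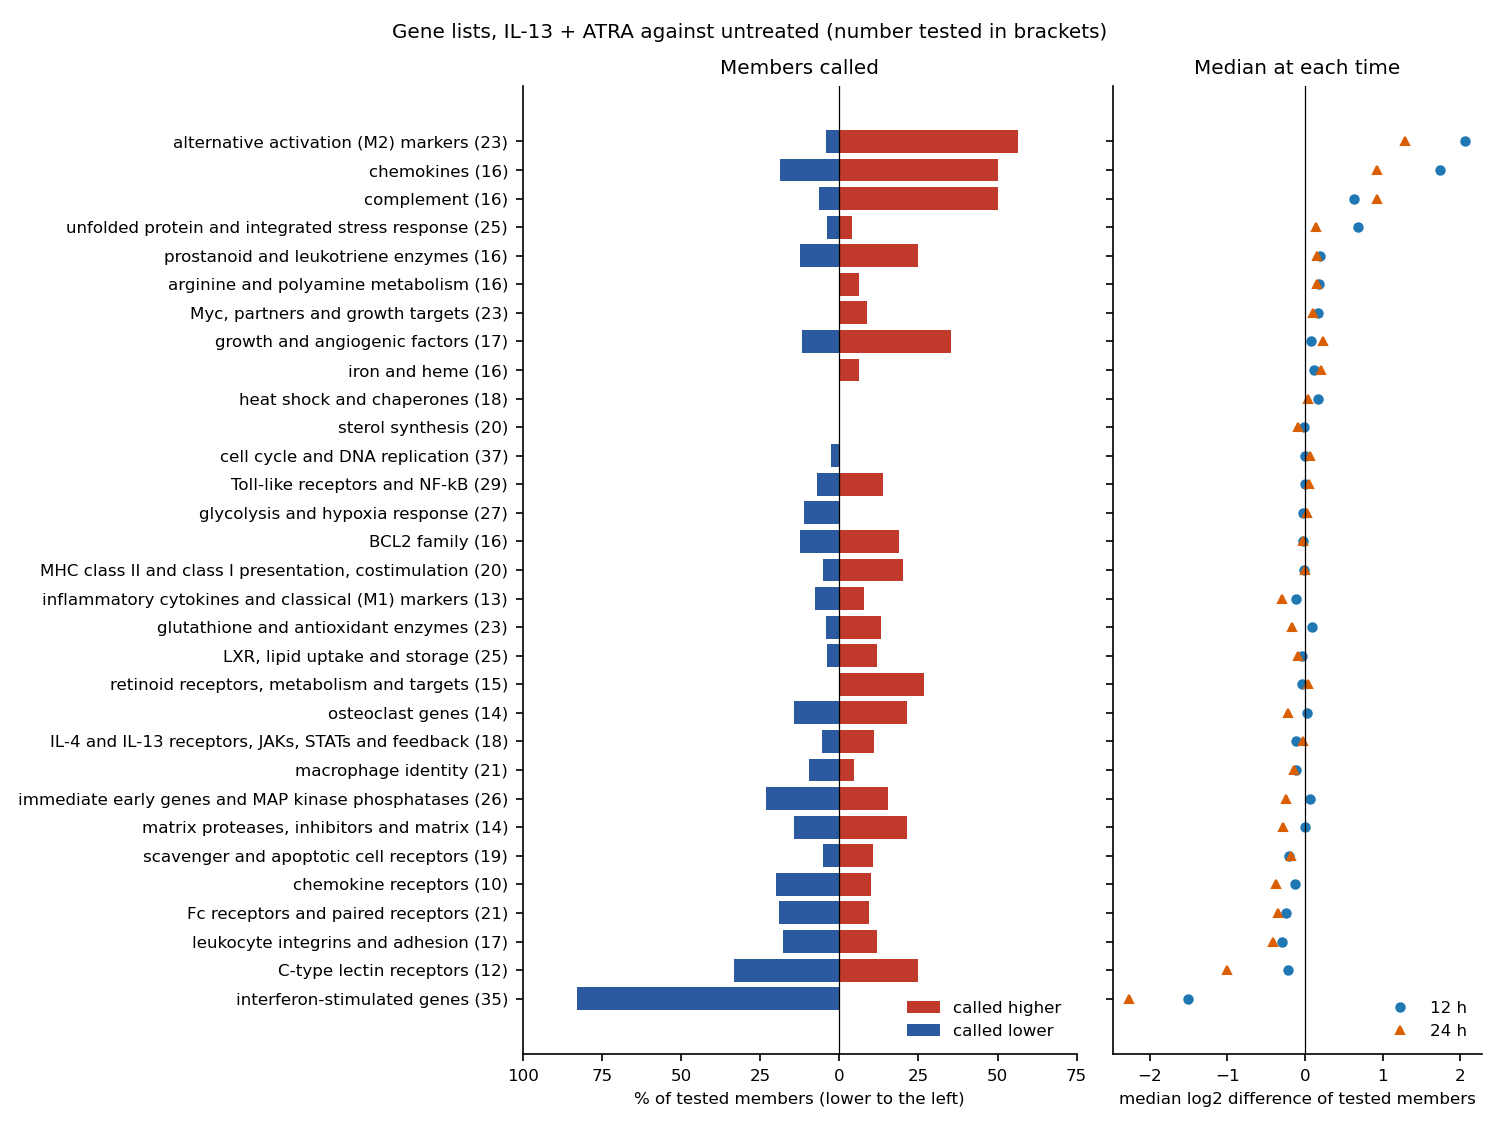
Left, the percentage of each gene list's tested members called higher (red, to the right) or lower (blue, to the left) with both agents; right, the list's median log2 difference at 12 h (circles) and 24 h (triangles). Interferon-stimulated genes have the largest share called lower (29 of 35), and the M2 markers, chemokines and complement genes the largest shares called higher (13 of 23, 8 of 16 and 8 of 16).

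In the list of IL-4 and IL-13 receptors, JAKs, STATs and their feedback genes, 2 of 18 tested members rose and 1 fell (median −0.11). Besides Cish, the feedback inhibitor Socs1, which blocks JAK kinases, rose from 7.0 and 6.63 to 9.44 and 9.26, by 2.54 ± 0.24 (adjusted p = 0.00878, limma). Il13ra1, the signalling chain of the IL-13 receptor, read 9.24 and 9.72 in untreated cells and 7.96 and 7.95 with both agents, and fell by 1.52 ± 0.16 (adjusted p = 0.0106, limma). The decoy receptor Il13ra2 read 3.08 and 3.48 in untreated cells and 2.96 and 1.05, not well above background, with both agents (adjusted p = 0.206, limma). With IL-13 alone it read 6.15 and 5.70.

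Of 15 tested genes of retinoid receptors, metabolism and targets, 4 rose and 0 fell. The list's median was −0.10 and turned to 0.11 under quantile normalization, with 7 of 15 higher in sign at first and 8 of 15 then. Rarb, the retinoic acid receptor beta, went from 8.50 and 8.80 to 10.72 and 10.61, a rise of 2.02 ± 0.18 (adjusted p = 0.00748, limma). Dhrs3, which reduces retinaldehyde to retinol, rose by 3.09 ± 0.19 in every refit, and Nrip1, a corepressor of nuclear receptors, by 1.78 ± 0.15. The receptor Rara read 4.37 and 3.44 in untreated cells and 2.55 and 7.10 with both agents, so it was lower at 12 h and higher at 24 h (adjusted p = 0.712, limma). The promoter of Rarb is shown because it carries the classic response element of this receptor family. It is the 250 bases before the start site from RefSeq, build GRCm38.p6, minus strand, chr14:16575477-16575726, with the retinoic acid response element of the direct repeat 5 type in capitals.
Rarb: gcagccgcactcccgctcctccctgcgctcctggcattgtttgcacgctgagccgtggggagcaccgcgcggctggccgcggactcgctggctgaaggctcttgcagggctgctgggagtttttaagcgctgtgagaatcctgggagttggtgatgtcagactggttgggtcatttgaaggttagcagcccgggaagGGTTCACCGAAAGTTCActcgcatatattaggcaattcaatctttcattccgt
The element starts at position −53 relative to the start site. The pattern searched on both strands was (A or G)G(G or T)TCA, then any 5 letters, then the same pattern again. It was in 0.0883% of 32851 promoter windows of that length and in 0.104% of 27025 genes. Of the 19 listed retinoid genes with a promoter given, 2 held it.

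Chemokine genes changed in both directions. Of 16 tested, 8 rose and 3 fell, with a median of 1.45. The 7 CC chemokines that rose, which draw monocytes, eosinophils and lymphocytes, were Ccl24, Ccl7, Ccl2 (3.80 ± 0.36), Ccl12 (3.15 ± 0.25), Ccl6 (3.03 ± 0.20), Ccl4 (2.52 ± 0.45) and Ccl3 (1.85 ± 0.37). Ccl2 went from 9.85 and 10.40 to 14.31 and 13.53 (adjusted p = 0.00881, limma), and Ccl6 from 7.22 and 7.67 to 10.64 and 10.32 (adjusted p = 0.00404, limma), the latter in every refit. Cxcl14, a chemokine of the CXC family, rose as well, by 1.80 ± 0.18. The other CXC chemokines that were called fell, among them 2 ligands of Cxcr3, a receptor found on T cells. Cxcl10 went from 12.15 and 12.12 to 10.10 and 8.74 (adjusted p = 0.0163, limma). Cxcl11 went from 7.44 and 7.83 to 4.95 and 3.25 (adjusted p = 0.0168, limma). Cxcl16 fell by 1.51 ± 0.24. The number that rose was 5 without the untreated array at 12 h, 2 without that at 24 h, and 5 without either array of both agents.

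Among 10 chemokine receptors 1 rose and 2 fell. Ccrl2, an atypical receptor that holds chemerin, rose by 1.86 ± 0.29. The fractalkine receptor Cx3cr1 fell by 1.25 ± 0.12 and Cxcr3 by 1.15 ± 0.16.

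Interferon-stimulated genes were lower as a group in cells given both agents. Of 35 tested members 29 fell and 0 rose, beside 5.48% and 3.02% over all genes, with a median of −1.78 that was −1.51 at 12 h and −2.26 at 24 h. In sign all 35 members were lower, and the same held under quantile normalization, the authors' values and normexp correction. The list's median was −0.92 with IL-13 alone and −1.33 with ATRA alone, against the same untreated arrays. The count called depended on single arrays: limma called 7 members without the untreated array at 24 h, 9 and 6 without the 12 h and the 24 h array of both agents, and 19 without either ATRA array. Without the untreated array at 12 h limma called 25.

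Oasl2, which resembles the sensors of viral RNA that make oligoadenylate, read 9.03 and 9.01 in untreated cells and 6.50 and 5.64 with both agents, the largest difference of the list at −2.95 ± 0.28 (adjusted p = 0.0089, limma). Oas3, an oligoadenylate synthetase, fell by 2.82 ± 0.21 and its relative Oas2 by 2.38 ± 0.17, both in every refit. Ifit3, which binds viral RNA complexes, went from 8.27 and 8.28 to 5.95 and 5.10 (adjusted p = 0.00653, limma), in every refit. Isg15, a ubiquitin-like modifier, read 10.31 and 11.23 in untreated cells and 8.94 and 8.05 with both agents (adjusted p = 0.0457, limma). Stat2, a part of the factor that carries interferon signals, fell by 1.60 ± 0.10 in every refit, and Irf9, its partner, by 0.98 ± 0.16. The guanylate-binding protein Gbp2 fell by 2.83, and Gbp3 fell by 2.48 in every refit. Irf7, the factor that amplifies interferon production, differed by −1.74 ± 0.42 and did not pass (adjusted p = 0.0644, limma). Ifnb1, interferon beta itself, was dim, at 4.09 and 3.70 in untreated cells and not well above background with both agents (adjusted p = 0.106, limma).

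**Figure D4:**
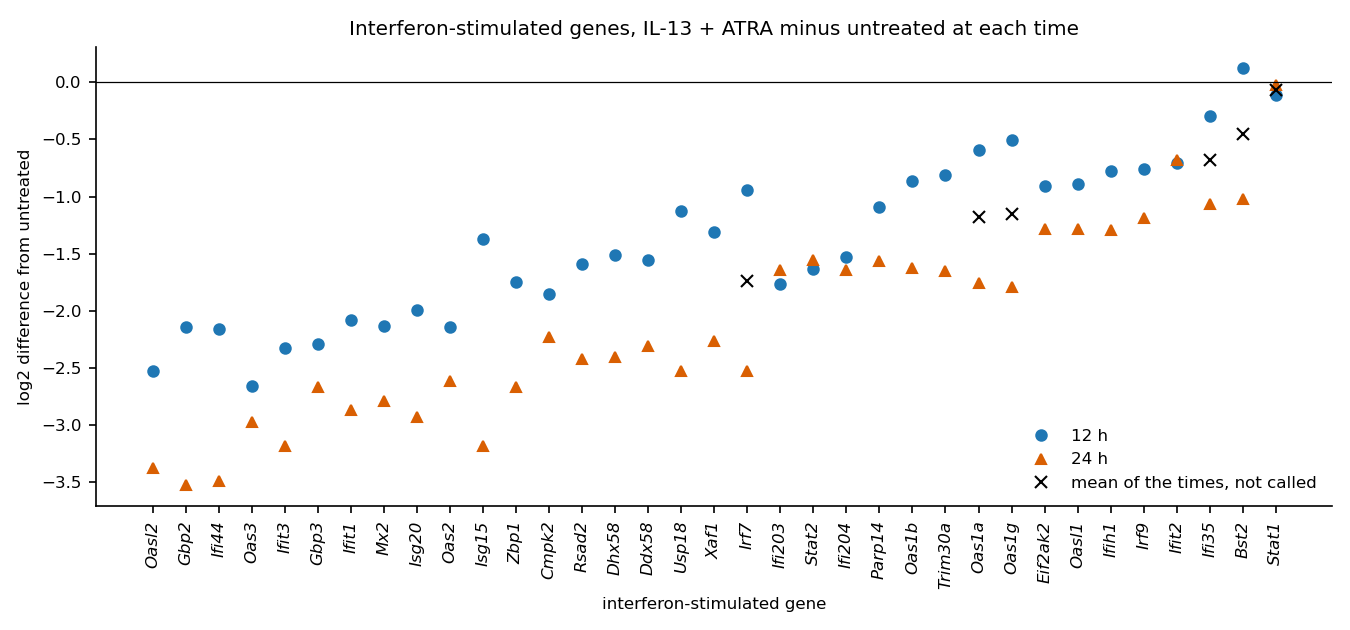
Log2 difference from untreated cells at 12 h (circles) and 24 h (triangles) for the 35 tested interferon-stimulated genes, ordered by their mean, with a cross at the mean of the 6 genes that were not called. The points lie below 0 with 1 exception, and the 24 h value is below the 12 h value for most genes.

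Promoters of the list members Isg15, Ifit3 and Ifit1 and of the chemokine Cxcl10, which all fell, are shown for the letters of the interferon-stimulated response element. The letters GAAANNGAAA, searched on both strands, were present in the 250 bases before a start site for 14 of the 27 list members found in the RefSeq table (51.9%). Over all 27025 genes with a promoter given, 3.46% held them. Matches are in capitals below (GRCm38.p6), and overlapping matches run together. The windows are chr4:156200819-156201068 on the minus strand for Isg15, chr19:34583279-34583528 on the plus strand for Ifit3, chr19:34640639-34640888 on the plus strand for Ifit1 and chr5:92348890-92349139 on the minus strand for Cxcl10.
Isg15: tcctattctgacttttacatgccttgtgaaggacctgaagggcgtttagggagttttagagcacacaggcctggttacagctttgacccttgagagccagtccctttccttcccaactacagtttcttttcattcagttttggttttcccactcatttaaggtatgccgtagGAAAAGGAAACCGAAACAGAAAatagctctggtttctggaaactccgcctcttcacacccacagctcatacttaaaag
Ifit3: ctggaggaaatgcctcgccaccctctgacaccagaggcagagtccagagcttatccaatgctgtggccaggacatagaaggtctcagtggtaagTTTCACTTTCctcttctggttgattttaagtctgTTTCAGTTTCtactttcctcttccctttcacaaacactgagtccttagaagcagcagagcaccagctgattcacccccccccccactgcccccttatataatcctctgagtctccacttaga
Ifit1: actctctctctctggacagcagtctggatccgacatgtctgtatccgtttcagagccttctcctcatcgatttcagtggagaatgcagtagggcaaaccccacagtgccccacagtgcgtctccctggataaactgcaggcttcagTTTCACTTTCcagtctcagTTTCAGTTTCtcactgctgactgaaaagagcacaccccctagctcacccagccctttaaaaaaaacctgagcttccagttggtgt
Cxcl10: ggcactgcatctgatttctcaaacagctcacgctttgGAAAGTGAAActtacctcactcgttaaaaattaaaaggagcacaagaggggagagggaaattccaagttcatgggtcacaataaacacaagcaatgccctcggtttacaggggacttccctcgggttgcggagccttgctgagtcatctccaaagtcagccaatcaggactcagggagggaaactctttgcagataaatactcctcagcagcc
Isg15 held 3 overlapping matches, Ifit3 and Ifit1 2 each, and Cxcl10 1. Of the 333 tested genes whose window held these letters, 48 fell (14.4%) and 16 rose (4.8%), beside 5.09% and 3.34% of the 10173 tested genes matched to a promoter. Without the members of the interferon list, 38 of 320 fell (11.9%). Their median difference was −0.03, so most genes with the letters did not share the fall. Ifit1 itself went from 8.38 and 8.49 to 6.30 and 5.63, a difference of −2.47 ± 0.23 (adjusted p = 0.00889, limma).

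Of 16 complement genes 8 rose and 1 fell, beside 3.02% and 5.48% over all genes (median 0.78). The 3 chains of C1q, which starts the classical pathway, rose together: C1qa by 5.57, C1qb by 4.15 and C1qc by 4.90. Their levels in untreated cells at 12 h and 24 h were 6.01 and 4.51, 6.73 and 6.22, and 7.72 and 6.04. With both agents they were 10.27 and 11.40, 9.99 and 11.26, and 11.00 and 12.56, so each chain was higher on both arrays and highest at 24 h. C3, the central component, rose by 2.76 ± 0.44, the anaphylatoxin receptor C5ar1 by 1.17 ± 0.14, its relative C5ar2 by 0.75 and properdin, Cfp, by 0.80. Cfp was not called under quantile normalization, with the authors' values or with only the 4 arrays compared. Serping1, the C1 inhibitor, was called higher but was not well above background on any of the 4 arrays compared. Cfb, factor B of the alternative pathway and also an interferon-inducible gene, fell by 2.22 ± 0.35. The number called higher was 3 without either untreated array, 0 without either array of both agents and 5 without either ATRA array.

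Genes of prostanoid and leukotriene synthesis changed in both directions. Of 16 tested 4 rose and 2 fell. Ptgs1, the constitutive cyclooxygenase, went from 10.30 and 9.68 to 14.28 and 14.88, a rise of 4.59 ± 0.29 (adjusted p = 0.00384, limma), in every refit. Tbxas1, thromboxane synthase, went from 6.93 and 6.87 to 11.86 and 11.70, a rise of 4.88 ± 0.17 (adjusted p = 0.00135, limma), also in every refit. The prostacyclin receptor Ptgir (1.26) and the prostaglandin E synthase Ptges2 (0.63) rose less. A second Ptgir probe, well above background on both untreated arrays and 1 of 2 arrays with both agents, gave −0.36, and the mean of both probes was not called. Alox5, which starts leukotriene synthesis, fell by 2.17 ± 0.21, and Hpgd, which inactivates prostaglandins, by 1.42 ± 0.18.

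Of 17 growth and angiogenic factors 6 rose and 2 fell, beside 3.02% and 5.48% over all genes (median 0.17). Igf1, insulin-like growth factor 1, was bright in all cells and rose from 13.50 and 13.42 to 15.90 and 15.85, by 2.41 ± 0.15 (adjusted p = 0.00384, limma), in every refit. Vegfa, the main angiogenic factor, rose by 1.12 ± 0.11 and Pdgfa, a platelet-derived growth factor, by 1.1 ± 0.12. The vasoconstrictor Edn1 was called higher, from 1.74 and 1.33, not well above background, to 3.84 and 3.60, where 1 of 2 arrays passed that mark. Angpt2, a ligand of the Tie2 receptor, fell by 1.78 ± 0.15 and Tgfb3 by 0.88. The lymphatic growth factor Vegfc differed by 0.75 ± 0.48 (adjusted p = 0.36, limma), with 4.07 for IL-13 alone.

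In 14 matrix genes 3 rose and 2 fell. The protease inhibitor Timp1 rose by 1.24 ± 0.17 beside Mmp9 and Col14a1, while the protease Mmp19 fell by 1.68 ± 0.30 and the sheddase Adam17 by 0.68 ± 0.13. Of 14 osteoclast genes 3 rose and 2 fell. Acp5, the tartrate-resistant acid phosphatase (2.67 ± 0.43), and the carbonic anhydrase Car2 (1.75 ± 0.13) rose with Mmp9. Nfatc1, the master transcription factor of osteoclasts, fell by 1.25 ± 0.14, and the RANK receptor Tnfrsf11a by 0.89 ± 0.16. The fusion genes Ocstamp (−1.40, adjusted p = 0.0631) and Dcstamp (−0.93, adjusted p = 0.122) did not pass by limma. In the iron list Cp, ceruloplasmin, a copper oxidase of iron export, was called, rising from 7.06 and 7.22 to 10.17 and 11.41, by 3.65 ± 0.29 (adjusted p = 0.00623, limma). The other 15 tested iron genes were not.

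The 15 genes with the largest fall held structural, signalling and interferon-inducible genes. Bmf, a pro-apoptotic BCL2 family protein, went from 8.59 and 8.63 to 4.24 and 4.53, a difference of −4.22 ± 0.28 (adjusted p = 0.00402, limma), with −1.36 on a second probe. Its call was lost without the untreated array at 24 h (adjusted p = 0.0502, limma). The guanylate-binding protein Gbp2b was at 5.27 and 4.99 in untreated cells and was not well above background with both agents, at least 3.63-fold lower (adjusted p = 0.00141, limma), in every refit. Kirrel3, an adhesion protein of the nephrin family, was at least 10.5-fold lower. Kirrel3 lost its call without the untreated array at 24 h (adjusted p = 0.0602, limma).

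Gja3, a connexin, was at least 14-fold lower on the probe used, while the 2 remaining Gja3 probes never passed the background mark. Pilrb1, an activating paired receptor, was at least 6.72-fold lower. The caveolins Cav1 and Cav2, membrane scaffolds, were lower: Cav1 fell by 4.24 ± 0.66 and Cav2 fell by 3.19 ± 0.34, and Cav1 was well above background on 1 of 2 arrays with both agents. Zbtb32, a transcriptional repressor, was bright in untreated cells at 12.42 and 12.49 and fell to 9.73 and 8.79. H2-T24, a nonclassical class I gene, fell by 3.34 ± 0.36, with −2.65 on a second probe, and Olfml3, a secreted olfactomedin-like protein, by 3.12 ± 0.36. The homeobox gene Dlx2, Baalc and Magix were at least 2.85-fold, 4.78-fold and 4.74-fold lower on the probe used. The remaining probes of Baalc and Magix were not well above background on any untreated array or any array with both agents. Baalc was not called under quantile normalization or normexp correction. Each call of this paragraph was lost without at least 2 arrays, among them 1 or both arrays of both agents. Dtx1, a regulator of Notch signalling, was at least 10.6-fold lower at the edge of the threshold (adjusted p = 0.0484, limma) and lost its call without any of the 6 arrays other than the untreated ones (adjusted p 0.0608 to 0.227).

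Surface receptors were split. Of 12 C-type lectins 3 rose (Mrc1, Mgl2 and Clec7a) and 4 fell, namely Clec4n, dectin-2 (−1.76), Clec4a2 (−1.16), Clec4b1 (−1.15) and Cd302 (−0.84). Clec4a2 and Clec4b1 belong to a cluster of close relatives whose probes could share signal. Of 21 Fc and paired receptors 2 rose and 4 fell. Trem1, which amplifies inflammation, rose by 1.45 ± 0.13, while the inhibitory receptors Cd300a and Pirb fell by 1.75 ± 0.19 and 1.57 ± 0.18, and Treml4 by 1.13. Of 17 integrins and adhesion genes 2 rose and 3 fell, beside a median of −0.43. Itgax, the CD11c chain, rose from 6.52 and 6.59 to 9.58 and 8.92 and its partner Itgb2 rose by 1.16. The laminin receptor Itga6 fell from 11.09 and 10.80 to 8.72 and 8.34, by 2.42 ± 0.15 (adjusted p = 0.00384, limma), in every refit, and lay below IL-13 alone (adjusted p = 0.0349) and ATRA alone (adjusted p = 0.0341). Itgal fell by 1.18 and Itga5 by 1.12. Of 19 scavenger receptors Cd36 and Stab1 rose and Havcr2, the receptor TIM-3, fell by 1.12.

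In antigen presentation and costimulation 4 of 20 tested genes rose and 1 fell (median −0.04). Cd74, the invariant chain of class II molecules, rose by 1.76 ± 0.14, Cd40 by 1.88 ± 0.19, Cd83 by 1.79 ± 0.11 and Cd274, the ligand PD-L1, by 1.76 ± 0.25. The rise of Cd83 held in every refit. Nlrc5, which switches on class I genes, fell by 1.21 ± 0.13. In the list of Toll-like receptors and NF-kB genes 4 of 29 rose and 2 fell. Ikbke, a kinase of interferon and NF-kB signalling, had the largest rise, from 6.23 and 6.37 to 9.34 and 9.22 (2.98 ± 0.19, adjusted p = 0.00402, limma), in every refit. Tlr8 was at least 3.24-fold higher, Tlr1 rose by 1.37 and Tlr4 by 0.82, while Tlr2 fell by 0.90 and the inhibitor Irak3 by 0.86. Of 13 inflammatory cytokines and classical activation markers, Osm, oncostatin M, rose by 1.15 ± 0.24 and Il18 fell by 1.51 ± 0.15. Nos2, Il6 and Il12b were well above background on 0 of 8 arrays.

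The macrophage identity genes had 1 of 21 called higher, Adgre1, the F4/80 antigen (0.83 ± 0.13), and 2 lower, Cx3cr1 and Ptprc, the CD45 phosphatase (−0.70 ± 0.14). Adgre1 was not called under quantile normalization, with the authors' values, on the mean of its probes or with only the 4 arrays compared. By sign 15 of the 21 lay below untreated cells, beside 8158 of 15440 over all genes. In lipid handling 3 of 25 genes rose and 1 fell. The cholesterol exporter Abca1 rose by 1.57 ± 0.21, besides Mlxipl and Cd36, and Mylip, which degrades the LDL receptor, fell by 2.03 ± 0.16. Both Abca1 and Mylip are known targets of the liver X receptors, and they moved in opposite directions. Of 23 glutathione and antioxidant genes 3 rose and 1 fell. Gstt4 was at least 4.61-fold higher, glutathione reductase Gsr rose by 1.21 ± 0.15, and Gstt1, well above background on 1 of 2 arrays with both agents and 0 of 2 untreated arrays, was called higher, while Gstm1 fell by 0.88. The heme oxygenase Hmox1 read 10.37 and 11.22 in untreated cells and 12.70 and 9.92 with both agents, so it was higher at 12 h and lower at 24 h (adjusted p = 0.73, limma).

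Lists of proliferation and core metabolism are given with the shares over all genes, 3.02% higher and 5.48% lower, since counts as small as these lie near them. Of 37 cell cycle and replication genes 0 rose and 1 fell, E2f2 (−0.74 ± 0.13), with a median of 0.00. Of 20 sterol synthesis genes limma called 0, and the largest difference was that of Insig1 (0.49, adjusted p = 0.144). Of 27 glycolysis and hypoxia genes 0 rose and 3 fell, namely Ndrg1 (−1.77 ± 0.11, in every refit), the hexokinase Hk1 (−1.05 ± 0.12) and Ankrd37 (−0.64). Of 16 genes of arginine and polyamine metabolism Arg1 alone was called (median 0.17). Of 23 Myc-related genes 2 rose, the polymerase subunit Polr1b (0.77) and Rrp9 (0.67), both of ribosome production. Myc itself read 8.64 and 7.86 in untreated cells and 8.39 and 7.06 with both agents, a difference of −0.52 ± 0.19 (adjusted p = 0.148, limma). It was 1.31 with IL-13 alone and −2.95 with ATRA alone, and its level with both agents lay below IL-13 (adjusted p = 0.0202) and above ATRA (adjusted p = 0.0229) by the same fit.

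Of 26 immediate early genes and MAP kinase phosphatases 4 rose and 6 fell. Fos, a subunit of AP-1, went from 11.76 and 11.48 to 9.80 and 9.24, a difference of −2.10 ± 0.18 (adjusted p = 0.00687, limma). Nr4a1 (−1.40), Dusp1 (−1.0), Klf6 (−0.95), Ier5 (−0.73) and Btg2 (−0.64) fell too, while Ier3 (2.21), Egr2, Atf3 (1.12) and Dusp6 (0.90) rose. Of 25 genes of the unfolded protein and integrated stress response 1 rose, Pdia4 (0.82 ± 0.13), and 1 fell, the sensor Atf6 (−1.03 ± 0.11). By sign 21 of the 25 lay above untreated cells, beside 7282 of 15440 over all genes. The list's median was 0.47, and it was 0.68 at 12 h and 0.14 at 24 h. Under quantile normalization 19 of 25 were higher in sign, with a median of 0.40. Trib3 (1.31, adjusted p = 0.0839), Creld2 (0.81, adjusted p = 0.0731) and Manf (0.76, adjusted p = 0.061) were higher in sign and did not pass by limma. Of 18 heat shock genes limma called 0. In the BCL2 family 3 of 16 rose, the survival genes Bcl2 (1.13 ± 0.15) and Bcl2a1b (1.39) and the pore-forming Bak1 (0.66), and 2 fell, Bmf and Bok (−0.90). A second Bak1 probe gave 0.05 and other Bcl2 probes 0.25 and 1.01, and neither gene was called on the mean of its probes. Bok was not called under quantile normalization, with the authors' values, with normexp correction or with only the 4 arrays compared.

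Set beside the single agents, cells given both differed from IL-13 cells in 407 genes (2.64%; 178 higher, 1.15%, and 229 lower, 1.48%). They differed from ATRA cells in 56 genes (0.363%; 41 higher, 0.266%, and 15 lower, 0.0972%). These comparisons share the arrays with both agents, so they are not independent of each other or of the comparison with untreated cells, and fewer calls against ATRA do not show that the agents act alike. The balance against IL-13 turned in refits, with 303 higher and 213 lower without the IL-13 array at 12 h, 70 and 49 without either untreated array, 82 and 68 without either ATRA array, and 50 and 41 and 14 and 1 without the 12 h and the 24 h array of both agents. It was 33 and 26 without the IL-13 array at 24 h. The count against IL-13 was 15 without the 24 h array of both agents, 91 without the 12 h one, 119 without either untreated array, 150 without either ATRA array and 59 without the IL-13 array at 24 h. The count against ATRA was 3 and 11 without the 12 h and the 24 h array of both agents, 5 without either untreated array, and 5 and 24 without the 12 h and the 24 h ATRA array. With both agents Cish was at least 156-fold above ATRA alone (adjusted p = 0.00188, limma), and Camkk1 at least 104-fold above IL-13 alone (adjusted p = 0.00308, limma). Levels of Socs1, Igf1, Cd74, Irf4 and Flt1 with both agents were 2.88, 2.16, 2.23, 2.04 and 2.09 above ATRA alone, each called. Their differences from IL-13 alone were −0.08, −0.08, −0.01, −0.60 and 0.52, none called. Levels of Ptgs1, Rarb and Cp with both agents were 3.59, 2.17 and 2.84 above IL-13 alone, each called. From ATRA alone these 3 differed by 0.25, 0.21 and 0.75, none called.

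**Figure D5:**
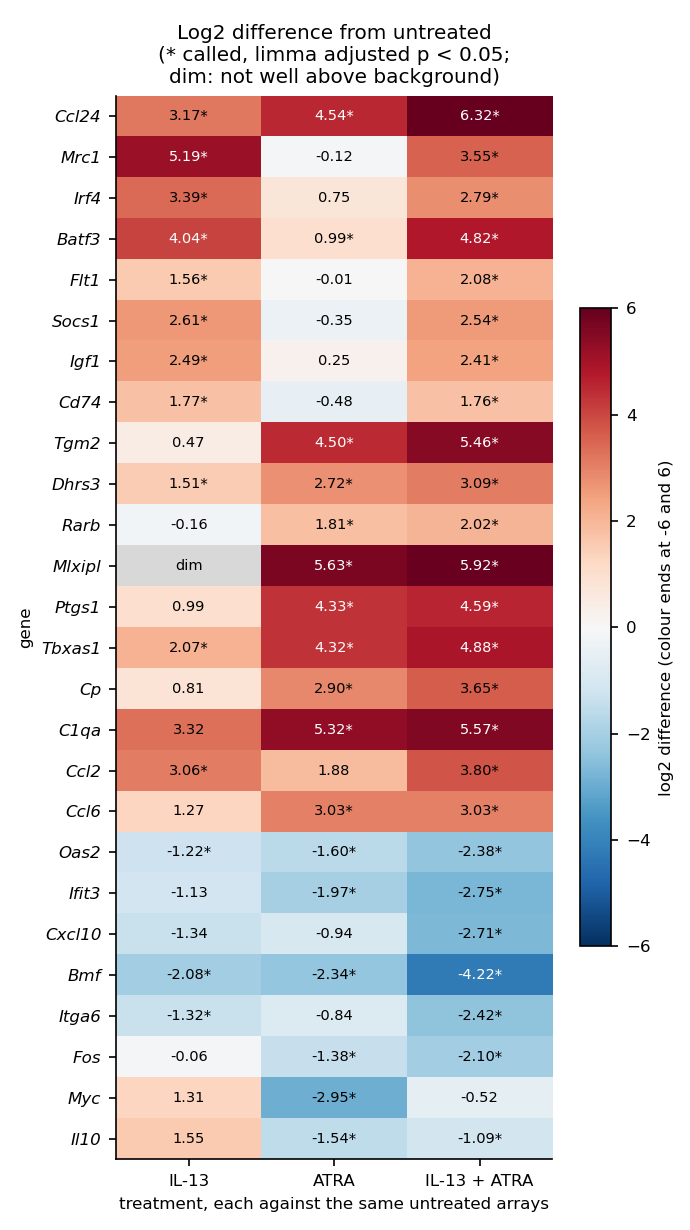
Log2 difference from the same untreated arrays for 26 genes named in the text and measured in untreated cells (vertical) with IL-13, with ATRA and with both agents (horizontal), printed in each cell and coloured red for higher and blue for lower, with a star for a limma call and grey where the treated arrays were not well above background. Socs1 has 2.61 and 2.54 with IL-13 and both agents but −0.35 with ATRA, and Ptgs1 has 4.33 and 4.59 with ATRA and both but 0.99 with IL-13.

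Whether the difference between cells given both agents and untreated cells changed from 12 h to 24 h was tested in the same arrays. Limma called 0 of 15440 genes (0%), with a lowest adjusted p of 0.561 and 1366 genes at an unadjusted p under 0.05, in a fit with 1 residual degree of freedom. That fit adds the change with time of the IL-13 effect and that of the ATRA effect. It assumes no change with time that only the combination has, so such a change was not tested. Normexp correction gave 76 genes (13 higher and 63 lower at 24 h) and eBayes with trend and robust gave 4, so the count of 0 depended on the setting. Past 2-fold at 12 h there were 429 higher and 959 lower genes, and at 24 h 407 and 909. The median of the C1q chains was larger at 24 h, as was that of the interferon list, while the M2 list had medians of 2.06 at 12 h and 1.29 at 24 h. No test of a difference in time was made on a list.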

How the data were processed

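RNA of RAW264.7 cells was hybridised to 8 one-colour Agilent arrays (design 014868), 1 per treatment and time. Per the file headers, the deposited intensity values were made with Agilent Feature Extraction (version 10.7.1.1), with local background removed and each array detrended; each spot's deposited flag, a value of 0 or 1, says whether it lay well above background. The authors' deposited value table holds log2 values with the same distribution in every column, as quantile normalization leaves it. Each of its columns ranked probes as its own array did (Spearman's rho at least 0.999996, against at most 0.963 with any other array), and its median was 4.58; what else was done to it is not given in the sources used here.

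From the intensities, log2 processed signal was scaled by each array's 75th percentile (448 to 739). Control spots and outlier flags were left out, spots of a probe were averaged and 49 probes with a missing value were dropped. Of 41174 probes, 24017 passed the background flag on each array of 1 treatment or more. The brightest such probe of each gene gave 15440 genes. Probes were named from RefSeq by accession (27668), symbol (5589) or synonym (471), and 7446 kept the file's name.

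limma 3.58.1 (R 4.3.3) was fitted to all 8 arrays with terms for treatment and time (3 residual degrees of freedom), with eBayes and Benjamini-Hochberg adjustment. Time is the block of this fit, and it coincides with the scan date. Where a group was not well above background, a fold is given as "at least": the bright group's mean log2 level over the lowest level well above background on the dim arrays, or the probe's own level if higher. Tested on simulated data for both agents against untreated cells (15440 genes), the script called 44 of 67 genes changed by 1 on the log2 scale, 63 of 67 changed by 2 and 64 of 66 changed by 4, with 11 calls among unchanged genes. That simulation drew independent noise at the fitted spread and gave the single agents no effects. Nor did it let a treatment effect differ between the times. Its rates may thus not hold for these arrays. The number of arrays limits the precision.

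The text names the 15 called genes with the largest rise and the 15 with the largest fall that have a symbol, Arg1, Ccl24 and Tgm2, called members of 40 gene lists, and up to 4 uncalled members per list. Plpp3 and Pcdhb11 were named outside that rule, after their values were seen. The members and lists were chosen with earlier results of these data known. Alternatives were other background corrections, normalizations, filters, blocks, variance settings and probe rules, and leaving out each array. Promoters came from RefSeq (GRCm38.p6), and probe positions (mm9) from the file headers. A few items are not reported here.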

Additional observations from a re-analysis of the deposited data

How the results depend on the processing

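Both agents against untreated cells gave 1313 called genes. The count stayed within 1.5 times of that with only the 4 arrays compared (921), normexp correction (1063), quantile normalization (1293), the authors' deposited values (1284), the mean of all probes (1314) and genes measured on all 8 arrays (1487). Without dim-probe filtering it was 36, and with eBayes set to trend and robust 2027. Without the replicate block, which is time, the counts were 1141 against untreated cells, 338 against IL-13 and 70 against ATRA; time as a random replicate block gave 1446, 448 and 85. Leaving out each array gave 103 to 1454, 15 to 516 and 3 to 45 for the same comparisons. Against IL-13 (407) the count was 7 without the filter, 817 with trend and robust and 13 with 4 arrays. Against ATRA (56) it was 4, 167 and 2, and 88 for genes measured on all 8 arrays. The 697 genes past 2-fold at both times became 286 with normexp, 1066 without the filter and 436 when measured on all 8 arrays. The count of 0 for a change between times became 76 with normexp and 4 with trend and robust. Of 170 called genes named or listed, 21 kept the call under every other setting in which they were tested, 30 without each array, and 20 under all of these. Hmox1, not called, turned to −0.36 without the untreated array at 12 h and −1.04 without the 12 h array of both agents. Rara, not called, turned to −0.08 and −1.73 without the 24 h arrays of the same groups. Over all arrays left out, Hmox1 ranged from −1.04 to 2.06 and Rara from −1.73 to 3.58. The cause of these shifts was not tested. Array signal near background limits genes given only as a bound, and 1 array per treatment and time limits all tests.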
